A study of Homo sapiens with 12 samples.

Results

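The genes described here encode the first steps of signalling below the B cell antigen receptor. They are CD79A, CD79B, LYN, SYK, BTK, BLNK, PLCG2, PRKCB and VAV1. They were chosen by gene name, from what their products do, with earlier results of these data known. The deposited count table of 26318 genes held all 9. All 9 also passed the filter on low counts, which left 16437 genes for testing. RNA was sequenced from TMD8, an established human line of the activated B cell (ABC) type of diffuse large B cell lymphoma. The control group was TMD8 with a scramble shRNA, a short hairpin RNA with no intended target (6 libraries). The other group was TMD8 with an shRNA against the mRNA of IRF4, a transcription factor of activated B cells and plasma cells (6 libraries). Both groups thus carried an shRNA, both came from a single cell line, and all pellets were taken at 24 h, with no stated starting point for that time. Library names carried a 1 or a 2 after the group, and the libraries that share a number, 3 of each group, are referred to as library series 1 and 2. What that number stands for, a hairpin, a culture or a batch, was not given in the labels.

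The B cell antigen receptor is a membrane immunoglobulin held in a complex with CD79A and CD79B, whose tails carry the tyrosines that start the signal. Src family kinases such as LYN phosphorylate those tyrosines, SYK binds to them, and SYK and BTK then act through the adaptor BLNK on phospholipase C gamma 2 (PLCG2), which makes the second messengers that release calcium and activate protein kinase C beta (PRKCB). VAV1 is a guanine nucleotide exchange factor that links the same complex to small GTPases that control the cytoskeleton. ABC lymphoma cells are known for lasting activity of this receptor, with mutations of CD79A or CD79B in some tumours, and for growth that depends on BTK and on the route from protein kinase C beta to NF-kB.

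IRF4 itself was checked first. Its level, in counts per 1e6 counts (CPM), lay between 1427 and 1571 CPM in the 6 controls. With IRF4 shRNA it was 526.1, 507.4 and 524.3 CPM in series 1 and 715.5, 703.1 and 689.0 CPM in series 2. All 6 IRF4 shRNA libraries were thus below all controls, with 34.7% of the control mean left in series 1 and 47.9% in series 2. The log2 fold change over 12 libraries was -1.28 (SE 0.09, edgeR adjusted p = 1.41e-08). It was less negative in series 2 by 0.46 on the log2 scale (SE 0.06, edgeR adjusted p = 0.0011), so the series also differ in how much IRF4 mRNA was left.

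Total counts ran from 31.3 to 38.2 M per library (M, 1e6 counts), and separate cultures are not stated for the libraries of a group. The p-values therefore measure only the spread between these samples, and that spread may be technical. The T cell markers in the table (3 of 6) summed to 0.483 to 0.858 CPM in controls and 0.763 to 1.29 CPM with IRF4 shRNA. Natural killer cell and erythroid markers (3 of 4 and 1 of 3) summed to at most 0.0327 and 0.102 CPM in any library, with KLRD1 and NCR1 at 0 in all 12. The summed B cell markers (6 of 6 in the table, CD79A and CD79B among them) lay between 4530 and 5113 CPM in controls and between 6479 and 6814 CPM with IRF4 shRNA. The summed myeloid markers (5 of 6), nearly all from CD68, were 41.9 to 53.9 CPM in controls and 28.7 to 41.2 CPM with IRF4 shRNA, and epithelial and stromal markers (3 of 4), mostly COL1A1, were 3.73 to 5.12 and 5.33 to 7.005 CPM. Their part in the results was not tested. The libraries also differed in how gene levels deviated with the GC content of the transcript: the Spearman correlation across genes, a description, was -0.50 to 0.60 in controls (replicate 3 lowest, replicates 5 and 6 highest at 0.42 and 0.60), 0.24 to 0.31 with IRF4 shRNA in series 1 and -0.33 to -0.19 in series 2.

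Over 12 libraries, 5 of the 9 genes rose with IRF4 shRNA, 1 fell and 3 did not pass the test. VAV1 (1.99-fold) and CD79A (1.71-fold) rose most, PLCG2, SYK and PRKCB rose by 1.27-fold, 1.26-fold and 1.23-fold, and LYN fell by 0.20 on the log2 scale. CD79B, BTK and BLNK did not pass. Calls are at an adjusted p under 0.05 by edgeR's quasi-likelihood test with Benjamini-Hochberg adjustment over all genes tested. Of all 16437 genes, 24.2% were called higher and 23.9% lower, so a call alone is common in these data (3983 and 3935 genes). With library size alone as the scaling, 5257 genes were called higher and 2968 lower, and CD79B and BLNK were called higher as well, which made 7 of the 9. The median log2 fold change was 0.30 over the 9 genes and -0.006 over all genes. In bulk RNA, fewer cells with a transcript and less of it per cell cannot be told apart.

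The 3 upstream sequences shown are those of CD79A and VAV1, which had the largest rises, and of PRKCB, the gene in which a searched motif was found. They lie just before the start of the gene and are credited to RefSeq (GRCh38.p14), on the plus strand at chr19:41877029-41877119, chr19:6772458-6772707 and chr16:23835733-23835945. Those of CD79A and PRKCB are shortened to end before the first transcript in GENCODE 29. Capitals mark the octamer, and sequences without capitals hold no match.
CD79A: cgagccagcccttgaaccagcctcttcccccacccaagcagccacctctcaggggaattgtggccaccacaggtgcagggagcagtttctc
VAV1: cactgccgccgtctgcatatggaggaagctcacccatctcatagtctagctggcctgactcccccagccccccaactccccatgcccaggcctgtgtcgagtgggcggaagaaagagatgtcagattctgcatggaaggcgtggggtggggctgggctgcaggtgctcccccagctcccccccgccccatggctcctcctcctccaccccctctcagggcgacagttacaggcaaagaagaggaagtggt
PRKCB: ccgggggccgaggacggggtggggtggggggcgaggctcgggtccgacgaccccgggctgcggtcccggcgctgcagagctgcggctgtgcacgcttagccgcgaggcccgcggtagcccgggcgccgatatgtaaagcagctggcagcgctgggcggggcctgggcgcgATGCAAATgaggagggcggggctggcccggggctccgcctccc

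In all, 4 short motifs were searched on both strands of the 250 bases before each RefSeq start, with 10 windows for 7 of the 9 genes (CD79A, SYK, BTK, BLNK, PLCG2, PRKCB and VAV1). GAAANNGAAA, the paired repeat that IRF factors can bind, was in 3.02% of all 35116 promoter windows of that length and in none of the 10. GGAANNGAAA, the composite site of ETS and IRF factors, was in 2.41% of all windows, and TCCCNNGGGA, the palindrome bound by EBF1, was in 1.06%, with none in the 10. ATGCAAAT, the octamer bound by POU factors, was in 1.63% of all windows and in 1 of the 10. That match begins 80 bases before the start of PRKCB, on the strand of the gene. These are matches of letters in a short window and no measure of binding.

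CD79A and CD79B are the signalling pair of the receptor, and they differed in response. CD79A (hg38, chr19:41877279-41881372, plus strand) had 673.3, 648.2 and 641.5 CPM in the series 1 controls and 1156, 1159 and 1146 CPM in the series 1 IRF4 shRNA libraries. In series 2 the controls had 659.0, 615.5 and 725.9 CPM and the IRF4 shRNA libraries 1113, 1104 and 1087 CPM. Every IRF4 shRNA library was far above every control. The group means were 660.6 ± 37.4 and 1127 ± 30.4 CPM (SD, n = 6 each). Its log2 fold change was 0.77 (SE 0.04, edgeR adjusted p = 2.86e-10), with 0.81 in series 1 and 0.74 in series 2 (edgeR adjusted p = 2.69e-09 and 2.34e-05).

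CD79B (chr17:63928740-63932336, minus strand) lay between 540.5 and 633.0 CPM in controls (median 555.6) and between 548.0 and 591.5 CPM with IRF4 shRNA (median 583.3). Over 12 libraries the groups overlapped, and control replicate 6 was the highest of all. Within series 1 the IRF4 shRNA values (584.9 to 591.5 CPM) were above the controls (552.0 to 567.7 CPM), and within series 2 the groups overlapped. The log2 fold change was 0.02 (SE 0.04, 95% interval -0.06 to 0.11, edgeR adjusted p = 0.638). The series gave 0.07 and -0.02, neither called (edgeR adjusted p = 0.0844 and 0.842). When the GC trend of each library was removed, the value in series 1 turned to -0.14 and passed (edgeR adjusted p = 0.0163), and that over 12 libraries to -0.02. With scaling by library size alone the value over 12 libraries was 0.10 and passed, so no direction is given for CD79B.

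IGHM, the heavy chain of the mu class of immunoglobulin, completes the receptor's surface part together with a light chain. It was at 2578 to 3324 CPM in controls and 2651 to 3177 CPM with IRF4 shRNA (log2 fold change 0.04, SE 0.06, edgeR adjusted p = 0.671). The groups overlapped. Within the series, IGHM was not called (log2 fold change 0.02 in series 1 and 0.05 in series 2), but its value changed with the setting. Over the alternatives it ran from -0.24 to 0.09 in series 1, where it passed in some, and from -0.03 to 0.22 in series 2. Over 12 libraries with TMM scaling, CD79A alone was called of the 3 receptor genes described.

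**Figure D1:**
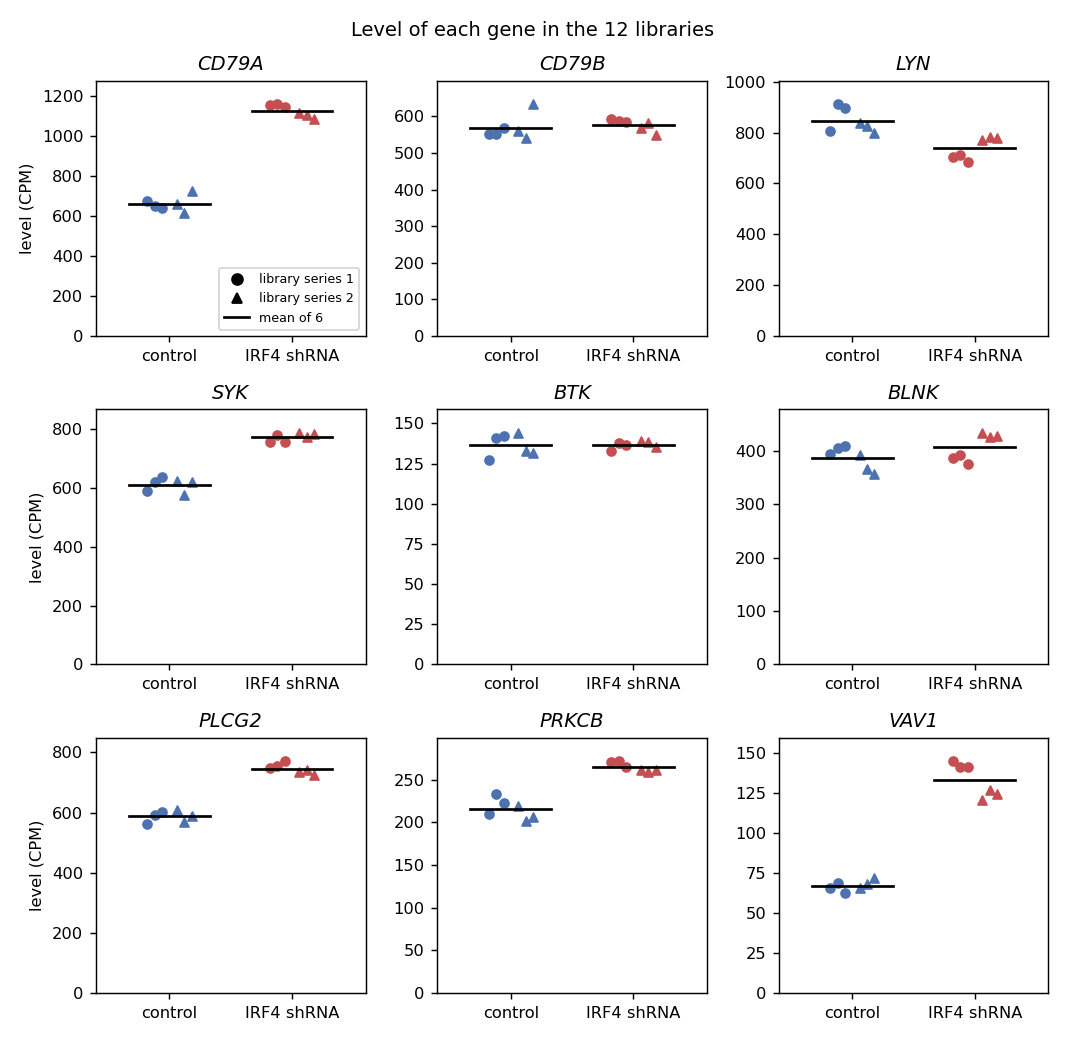
Level of each of the 9 genes in CPM on the vertical axis, with controls and IRF4 shRNA libraries side by side, circles for library series 1, triangles for series 2 and a bar at the mean of 6. For CD79A, SYK, PLCG2, PRKCB and VAV1 all IRF4 shRNA points lie above all control points, for LYN all lie below, and for CD79B, BTK and BLNK the groups overlap.

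Among the kinases, LYN fell, SYK rose and BTK was not called. LYN (chr8:55879835-56014169, plus strand) is the main Src family kinase of B cells and also phosphorylates inhibitory receptors. It had 807.7, 911.5 and 897.8 CPM in the series 1 controls and 703.1, 709.8 and 685.4 CPM with IRF4 shRNA. In series 2 it had 837.4, 825.8 and 798.0 CPM in controls and 772.3, 780.9 and 779.8 CPM with IRF4 shRNA. The groups did not overlap, but the gap in series 2 was narrow. With edgeR the log2 fold change was -0.20 (SE 0.05, edgeR adjusted p = 0.00225). It was -0.32 in series 1 (SE 0.04, edgeR adjusted p = 8.35e-05) and -0.07 in series 2 (SE 0.04, 95% interval -0.18 to 0.04, edgeR adjusted p = 0.221). When each series was summed to 1 control and 1 IRF4 shRNA sample, LYN's fall over both series was -0.19 and no longer passed (edgeR adjusted p = 0.127).

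SYK (chr9:90801787-90898549, plus strand), the kinase that docks on the phosphorylated receptor tails, moved the other way. Controls had 576.0 to 636.3 CPM (median 619.1) and IRF4 shRNA libraries 754.6 to 787.3 CPM (median 776.6). The lowest IRF4 shRNA library was well above the highest control. As a log2 fold change this was 0.34 (SE 0.03, edgeR adjusted p = 2.08e-07), 0.31 in series 1 and 0.38 in series 2.

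BTK (chrX:101349447-101390796, minus strand), the Tec family kinase that activates PLCG2 and is the target of ibrutinib, had 127.5 to 144.2 CPM in controls (median 136.7) and 132.9 to 138.9 CPM with IRF4 shRNA (median 137.1). The IRF4 shRNA values lay inside the range of the controls. Its log2 fold change was 0.002 (SE 0.04, 95% interval -0.08 to 0.08, edgeR adjusted p = 0.972). The interval excludes a change as large as that of SYK. In neither series was BTK called, and its sign turned with several settings.

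BLK, the other Src family kinase largely restricted to B cells, fell more than LYN. Controls had 32.0 to 37.9 CPM and IRF4 shRNA libraries 13.2 to 19.99 CPM, without overlap. The log2 fold change was -1.07 (SE 0.09, edgeR adjusted p = 1.11e-07), with -1.22 in series 1 and -0.95 in series 2.

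Of the adaptor and effector genes, BLNK (chr10:96189171-96271587, minus strand), the adaptor that brings BTK and PLCG2 together, differed between the series. In series 1 it had 392.9, 404.1 and 408.8 CPM in controls and 387.0, 392.7 and 374.2 CPM with IRF4 shRNA. In series 2 it had 392.6, 365.1 and 356.0 CPM in controls and 433.6, 424.9 and 428.2 CPM with IRF4 shRNA. Within series 1 all IRF4 shRNA values were just below the controls, and within series 2 all were above them. With edgeR the log2 fold change was -0.07 in series 1 (SE 0.03, edgeR adjusted p = 0.119) and 0.22 in series 2 (SE 0.05, edgeR adjusted p = 0.00592). Over 12 libraries it was 0.07 (SE 0.05, 95% interval -0.03 to 0.18, edgeR adjusted p = 0.212), and it passed when the GC trend was removed (0.09, edgeR adjusted p = 0.037). BLNK overlaps ZNF518A on the opposite strand (75.9 CPM on average), and the use of strand in counting is not stated, so reads of the overlap cannot be told apart.

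PLCG2 (chr16:81739097-81962685, plus strand) had 563.0 to 606.7 CPM in controls (median 591.1) and 723.4 to 770.9 CPM with IRF4 shRNA (median 744.1). No IRF4 shRNA library was near the controls. As a log2 fold change this was 0.34 (SE 0.03, edgeR adjusted p = 1.04e-07), 0.36 in series 1 and 0.33 in series 2. The gene shares its strand with the non-coding AC099524.1, which was at 7.72 CPM.

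PRKCB (chr16:23835983-24220611, plus strand), the kinase activated by diacylglycerol and calcium, had 201.9 to 233.0 CPM in controls (median 214.6) and 258.6 to 271.7 CPM with IRF4 shRNA (median 263.3). The groups were again separate. Its log2 fold change was 0.30 (SE 0.04, edgeR adjusted p = 7.24e-06), 0.27 in series 1 and 0.33 in series 2.

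VAV1 (chr19:6772708-6857366, plus strand) had the largest change of the 9. Controls had 65.38, 68.49 and 62.43 CPM in series 1 and 65.33, 68.27 and 71.53 CPM in series 2. With IRF4 shRNA it had 144.9, 141.5 and 141.5 CPM in series 1 and 120.3, 127.0 and 124.1 CPM in series 2. Controls were alike in the series, and the IRF4 shRNA values of series 1 were all above those of series 2. The log2 fold change was 0.99 (SE 0.05, edgeR adjusted p = 7.82e-10), 1.12 in series 1 and 0.87 in series 2.

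In all, the groups did not overlap for 5 genes that were higher and 1 that was lower (LYN), against 16.2% and 14.7% of all genes tested. Within series 1, 5 of the 9 genes rose and 1 fell (25.8% and 24.6% of the 16572 genes tested there). Within series 2, 6 rose, BLNK being the additional one, and none fell (20.2% and 17.9% of 16614). CD79B, BTK and LYN were those not called in series 2. At an unadjusted p under 0.05 no member fell there either, and DESeq2 called none lower.

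**Figure D2:**
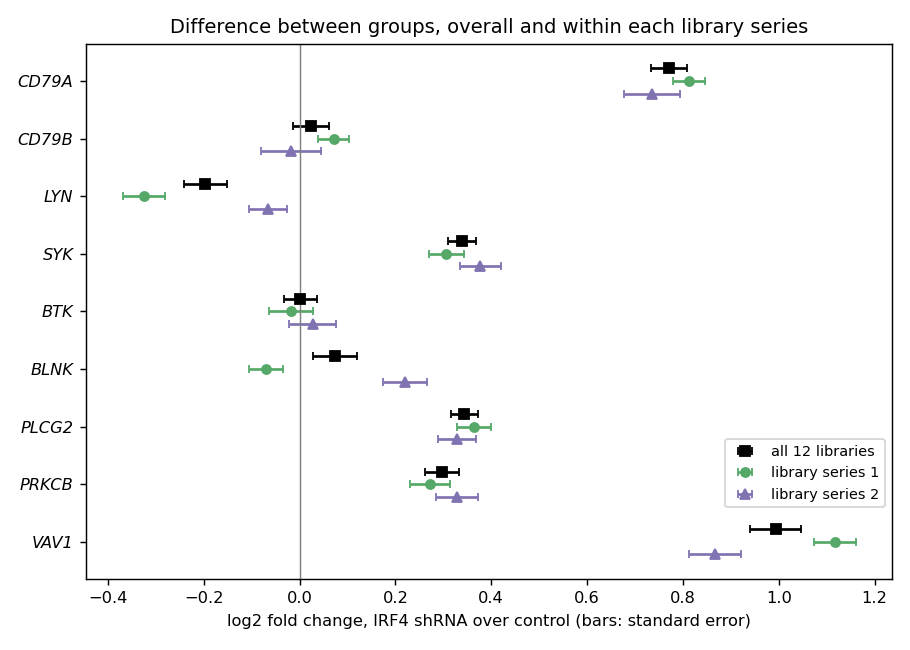
Log2 fold change of IRF4 shRNA over control on the horizontal axis for each gene, with squares for all 12 libraries, circles for series 1, triangles for series 2 and bars of 1 standard error. CD79A and VAV1 lie farthest to the right, LYN is at -0.32 in series 1 and -0.07 in series 2, and BLNK is on different sides of 0 in the series.

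The difference between the series was tested itself, as an interaction term, positive where the fold change was higher in series 2. It was called for 3 of the 9 genes. LYN (0.24, SE 0.06, edgeR adjusted p = 0.0241) and BLNK (0.27, SE 0.06, edgeR adjusted p = 0.0135) were higher in series 2, as 5.07% of all genes were. VAV1 was lower (-0.27, SE 0.07, edgeR adjusted p = 0.022), as 8.97% were. The other genes were not called, with differences from -0.11 for CD79B to 0.05 for SYK. After removal of the GC trend, LYN kept 0.18 (edgeR adjusted p = 0.0492) and BLNK 0.21 (edgeR adjusted p = 0.0116), while VAV1 was at -0.10 and was not called (edgeR adjusted p = 0.289). Over all genes that removal changed the split of calls from 834 higher and 1474 lower to 764 and 629. The calls of LYN and VAV1 were near the threshold. LYN's was lost when any 1 of 8 libraries was left out (control replicates 2, 3, 5 and 6 and IRF4 shRNA replicates 1, 3, 5 and 6; edgeR adjusted p up to 0.0715). VAV1's was lost without any 1 of 5 (control replicates 3 and 5 and IRF4 shRNA replicates 1, 4 and 6; edgeR adjusted p up to 0.0656), and BLNK's remained without any 1 of the 12. Without control replicates 5 and 6, whose levels deviated upward with GC, none of the 3 was called, and in that fit series 2 has 1 control, assumed to vary like the other libraries. The series also differed in the IRF4 left and in GC trend, and the part of each was not tested.

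To compare levels between genes, CPM were divided by the exon length of each gene in kb (GENCODE 29, union of exons). In controls the order of these per-length levels was CD79A (440 CPM per kb), CD79B (273), LYN (137), SYK (117), BLNK (106), PLCG2 (43.8), BTK (29.8), PRKCB (19.4) and VAV1 (15.5). Among neighbours in this order, only SYK and BLNK overlapped in their ranges over libraries. All 9 are well expressed: their per-length levels stood between percentile 82.3 (VAV1) and 99.4 (CD79A) of the 15832 tested genes with a length. With IRF4 shRNA CD79A was at 750 CPM per kb and CD79B at 277, SYK (148) stood above LYN (119), and VAV1 (30.9) above BTK (29.9) and PRKCB (23.9), with overlapping ranges for LYN and BLNK (111) and for VAV1 and BTK. The place of BLNK depends on the length used: by its longest transcript it follows CD79B in both groups. By that length BTK also stays above VAV1 with IRF4 shRNA, whereas SYK stands above LYN and CD79A above CD79B by either length.

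**Figure D3:**
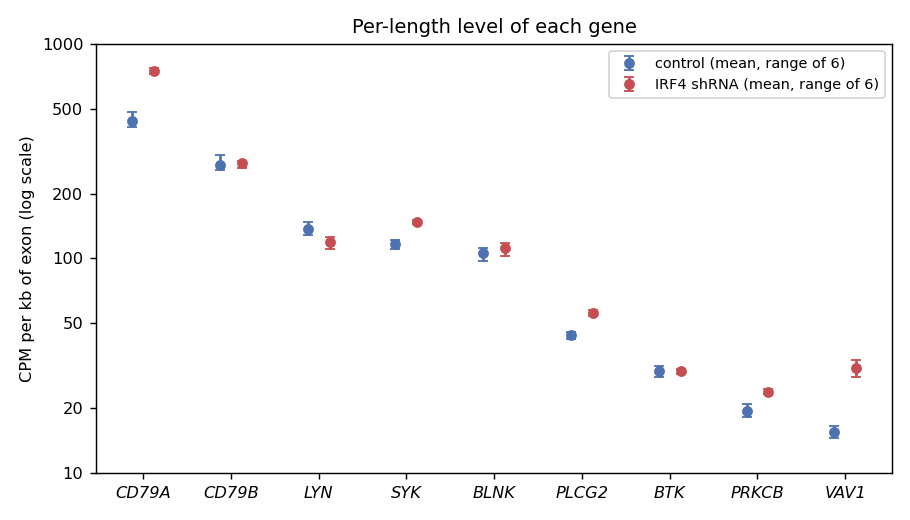
Per-length level in CPM per kb of exon on a log scale for each gene, as the mean with the range of 6 libraries, controls beside IRF4 shRNA. CD79A is highest in both groups (440 and 750), LYN and SYK change places, and VAV1 moves from 15.5 to 30.9.

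Ratios within a library do not depend on how the library was scaled, and 4 were compared by exact two-sided permutation over libraries. CD79A to CD79B, the receptor pair, was 1.56 to 1.69 in controls and 2.63 to 2.74 with IRF4 shRNA. These ranges lie far apart, and the difference of mean log2 ratios was 0.75 over 12 libraries, 0.74 in series 1 and 0.75 in series 2. SYK to LYN was 0.806 to 0.922 in controls, below 1 in every library, and 1.18 to 1.31 with IRF4 shRNA, above 1 in every library (log2 difference 0.54, with 0.63 and 0.44 in the series). PLCG2 to BTK, a substrate and its kinase, was 1.43 to 1.53 in controls and 1.80 to 1.92 with IRF4 shRNA (log2 difference 0.34, with 0.38 and 0.30). VAV1 to BLNK was 0.130 to 0.171 in controls and 0.236 to 0.321 with IRF4 shRNA (log2 difference 0.92, with 1.19 and 0.65). For each of the 4 ratios the groups were separate and the exact permutation gave p = 0.00216, its smallest possible value with 6 libraries a group, also after adjustment over the 4. Within a series the smallest possible exact p is 0.1, which each ratio reached. A ratio shows unequal change of its genes, not which of them changed. In each pair the first gene had risen without overlap in these same libraries, and the second was not called or fell. The separation of the ratios was therefore largely set beforehand, and it is no further support.

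**Figure D4:**
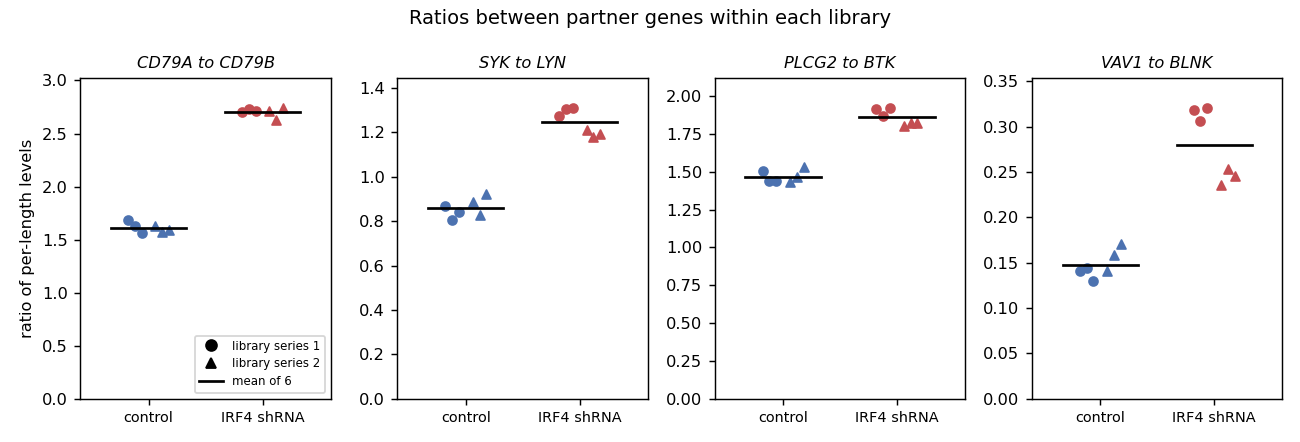
Ratio of per-length levels of 4 pairs of genes on the vertical axis in each library, controls beside IRF4 shRNA, circles for series 1, triangles for series 2 and a bar at the mean of 6. All IRF4 shRNA points lie above all control points in the 4 panels, and among the IRF4 shRNA points those of series 1 are the higher ones for SYK to LYN, PLCG2 to BTK and VAV1 to BLNK.

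Other genes of the receptor pathway were described from lists by role, written with earlier results of these data known. Their counts and medians are thus a description. The median log2 fold change was 0.56 for inhibitory receptors (8 of 9 tested genes rose, none fell). Medians were 0.20 for negative regulators inside the cell (7 of 12 rose, 1 fell), 0.20 for other kinases, adaptors and exchange factors (16 of 28 rose, 3 fell) and 0.09 for second messenger and calcium genes (9 of 18 rose, 3 fell), beside -0.006 over all genes. Over all genes tested 24.2% were called higher and 23.9% lower. With counts summed per series (2 sums a group), 5 of 9 inhibitory receptors rose, and 4 of 19 second messenger and calcium genes rose and 1 fell. In that setting 2310 of all 19241 genes tested were called higher and 1932 lower. Without control replicates 5 and 6, 2 of the 12 negative regulators fell, beside 4245 of all 16745 genes tested. Of the inhibitory receptors, CD5 was the tested gene not called (log2 fold change 0.08), so none had a negative value.

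Among inhibitory receptors, CD22, a Siglec that recruits phosphatases, rose from 300 ± 6.02 to 612 ± 23.7 CPM (SD, n = 6 each). CD72, a lectin with a similar role, rose from 206 to 394 CPM and LILRB1 from 136 to 201 CPM. These 3 were separate between groups and their series did not differ by test (interaction edgeR adjusted p = 0.575, 0.719 and 0.354). By that test 2 of the 9 inhibitory receptors had a higher fold change in series 2 and 1 a lower (5.07% and 8.97% of all genes). Of the regulators inside the cell, PTPN6 (SHP-1), the phosphatase that those receptors recruit, rose from 230 ± 12.03 to 557 ± 39.0 CPM (SD, n = 6 each; log2 fold change 1.28, SE 0.05, edgeR adjusted p = 2.04e-11). The rise of PTPN6 was smaller in series 2 (interaction -0.23, SE 0.07, edgeR adjusted p = 0.0479), a call not kept under every alternative. PAG1, a membrane adaptor that brings the inhibitory kinase CSK to Src kinases, was the 1 that fell, from 174 to 107 CPM. UBASH3B, a phosphatase, rose but had only 28 counts in the 6 controls and 141 with IRF4 shRNA.

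Among other kinases and adaptors, PLCG1, the phospholipase better known from T cells and a close relative of PLCG2, rose from 34.0 to 68.7 CPM (log2 fold change 1.01, SE 0.04, edgeR adjusted p = 1.55e-11). FGR and LCK, Src family kinases best known from myeloid and T cells, rose from low counts, FGR from 94 to 633 and LCK from 18 to 259 counts summed over 6 libraries. The 18 counts of LCK are about the floor of 3 per library, so no fold is given. Its mean CPM was 0.0905 ± 0.0510 in controls, against 1.21 ± 0.165 after IRF4 shRNA (SD, n = 6 each). The T cell marker TRAC had a mean CPM of 0.0999 ± 0.0962 in controls, against 0.494 ± 0.134 after IRF4 shRNA (SD, n = 6 each). CD8A had 0.572 and 0.439 CPM, and CD3E was at 0 in all controls and at a mean of 0.00511 CPM after IRF4 shRNA. Their part in the values of LCK was not tested. Of the calcium genes, NFATC1 rose from 13.9 to 25.3 CPM in controls to 86.5 to 124 CPM with IRF4 shRNA, while NFATC2 fell from 98.2 to 102 CPM to 47.0 to 57.6 CPM. Both are calcium-regulated transcription factors, and their log2 fold changes were 2.47 (SE 0.15, edgeR adjusted p = 4.18e-09) and -0.93 (SE 0.05, edgeR adjusted p = 8.1e-10). The changes of NFATC1 and NFATC2 were smaller in series 2 (interaction -0.74, SE 0.21, edgeR adjusted p = 0.0359, and 0.24, SE 0.06, edgeR adjusted p = 0.0294). Neither call was kept under every alternative. DGKA, a kinase that removes the diacylglycerol made by PLCG2, rose from 30.4 to 47.1 CPM.

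Of the genes between protein kinase C and NF-kB, MALT1, a protease, rose from 98.8 to 152 CPM (log2 fold change 0.62, SE 0.05, edgeR adjusted p = 9.86e-08). CHUK, the kinase IKK alpha, fell from 54.99 to 43.1 CPM (log2 fold change -0.35, SE 0.06, edgeR adjusted p = 8.93e-05).

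**Figure D5:**
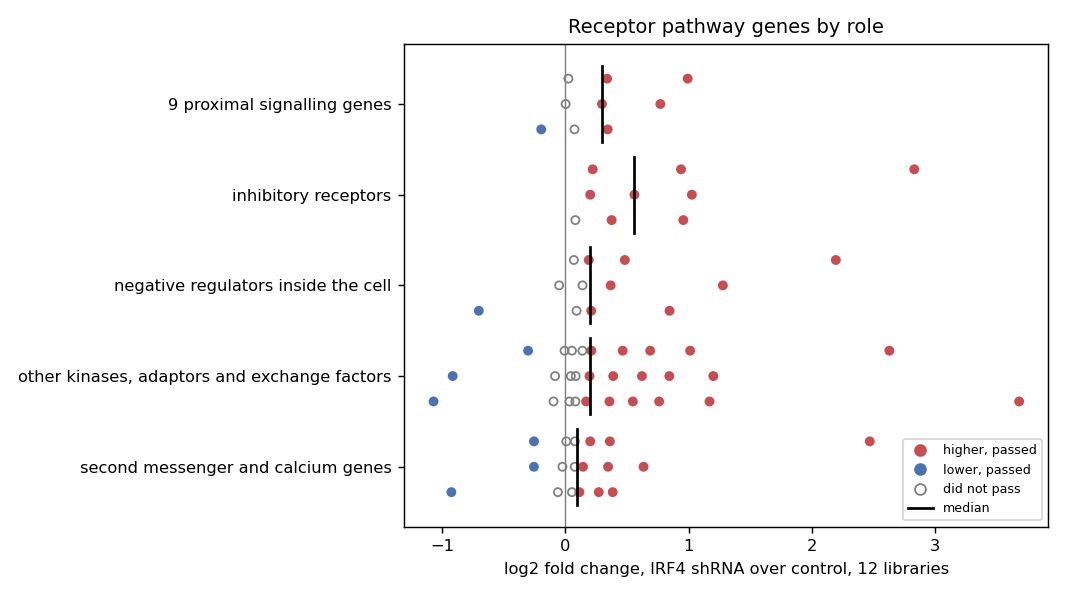
Log2 fold change over 12 libraries on the horizontal axis for the 9 proximal genes and the tested genes of 4 lists, with filled points for genes that passed the test (higher or lower), open points for those that did not and a bar at the median. The medians run from 0.56 for inhibitory receptors to 0.09 for second messenger and calcium genes, and the 9 genes are at 0.30.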

How the data were processed

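Poly(A) RNA of 12 TMD8 libraries was sequenced from a stranded TruSeq kit as 100 bp read pairs, per the labels' protocols. A cell line characteristic ran upward in number from TMD8 while every title said TMD8, so all were taken as TMD8. The deposited table holds what the authors made from their aligned reads, one estimated count per gene and library (expected counts) with no normalization, and 66.6% of its values are whole at a tolerance of 1e-06. STAR, HTSeq and build hg38 are named in the submitters' processing notes; the step that made fractional values, the annotation and the use of strand are not given in the sources used here. Gene coordinates are those of the table, with the end reduced by 1.

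Counts were rounded and tested with edgeR 4.0.16 in R 4.3.3 (quasi-likelihood, TMM, filterByExpr with minimum count 10), with no covariate over 12 libraries, in each series alone, and with an interaction term for their difference. Standard errors are the log2 fold change over the square root of F, and 95% intervals use the residual degrees of freedom. Levels are CPM on TMM-scaled library sizes, with mean ± SD. A floor of 3 counts is 0.0763 to 0.0981 CPM on that scale and covers counting error only. Replicate libraries were no duplicates: between pairs of 1 group and series, chi-square per degree of freedom was 2.73 to 31.9 (genes with at least 20 counts). The scripts were tested on simulated counts.

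The 9 genes, the lists of pathway genes and the markers were chosen with earlier results of these data known. Genes named beside the 9 are IRF4, BLK, IGHM, up to 3 genes per list with the smallest p that passed, the opposite-direction gene of each list with the smallest p, and the 3 genes most like CD79A and CD79B. Some of these genes and lists are not reported here. Alternatives were DESeq2 1.42.0, its size factors, library size alone, no filter, truncation, series as a covariate, replicate blocks, removal of the GC trend (lowess span 0.3), sums per series, each library left out, and control replicates 5 and 6 left out. Ratios were repeated with a pseudocount of 10 counts.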

Additional observations from a re-analysis of the deposited data

Results flagged for a closer look

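Among 68 groups of 6 values examined, 5 had a sample that stood apart from the others of its group, and chance gives about 1 in 20. The gap to the nearest other sample, as a share of the group's whole range, was 0.689 for CD79B in control replicate 6 (highest) and 0.680 for the ratio of CD79A to CD79B in IRF4 shRNA replicate 5, the lowest of its group. It was 0.654 for UBASH3B in control replicate 1 (lowest), 0.628 for DGKA in IRF4 shRNA replicate 2 (lowest) and 0.671 for MALT1 in IRF4 shRNA replicate 5 (highest).

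The effect of IRF4 shRNA differed between the library series, by the interaction test of edgeR, for 3 of the 9 genes and for IRF4. Of the 3, 2 were higher in series 2 and 1 was lower, beside 5.07% and 8.97% of all genes. The differences, series 2 minus series 1 on the log2 scale, were 0.24 for LYN, 0.27 for BLNK, -0.27 for VAV1 and 0.46 for IRF4. In these libraries the rise of VAV1 and the fall of LYN were larger in series 1, and BLNK was called higher in series 2 and not called in series 1. LYN's call was lost without any 1 of 8 libraries and VAV1's without any 1 of 5. With the GC trend removed VAV1's difference was -0.10 and not called. The series also differed in the IRF4 left and in GC trend, and the part of each was not tested.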

How the results depend on the processing

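Over 12 libraries CD79A, SYK, PLCG2, PRKCB and VAV1 kept direction and call under all 23 alternatives, and the 4 ratios under all of theirs. For CD79A the lowest log2 fold change among the 23 was 0.72, against 0.77. The lowest values were 0.32 for SYK, 0.33 for PLCG2, 0.26 for PRKCB and 0.97 for VAV1. The number of the 9 genes that fell over 12 libraries went from 1 to 0 with counts summed per series. In series 1 it was 2 with the GC trend removed and 1 to 2 with a library left out (2 without control replicate 1, BLNK at -0.09). In series 2 it was 1 without control replicates 5 and 6 (LYN, -0.10), in a fit with 1 control against 3 IRF4 shRNA libraries, in which that control is assumed to vary like the others. Of the differences between series, the count of higher values was 1 with either replicate block, 0 without control replicates 5 and 6, and 1 to 2 with a library left out. The count of lower values was 0 with the GC trend removed and 0 without control replicates 5 and 6, and 0 to 1 with a library left out.

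Signs turned mostly in genes near 0, and the cause was not tested. With the GC trend removed, values were -0.0189 (CD79B) and -0.00247 (IGHM) over 12 libraries, -0.137 (CD79B) and 0.0250 (BTK) in series 1 and 0.101 (CD79B) in series 2. For the difference between series they were then 0.293 (CD79A, edgeR adjusted p = 0.053), 0.235 (CD79B), -0.0144 (BTK) and -0.0195 (PRKCB). With library size alone they were 0.0570 (BTK) and 0.00527 (BLNK) in series 1 and 0.0509 (CD79B) and 0.00172 (LYN) in series 2. Without control replicates 5 and 6 they were -0.0237 (BTK) over 12 libraries, 0.0209 (CD79B) and -0.0650 (BTK) in series 2, and -0.0564 (BTK) and -0.0304 (PRKCB) for the difference. With 1 library left out, BTK ran from -0.0182 to 0.0251 over 12 libraries, from -0.0665 to 0.00827 in series 1, from -0.0110 to 0.0588 in series 2 and from -0.000997 to 0.0769 for the difference, and CD79B from -0.0752 to 0.0402 in series 2.

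Replicate numbers did not pair the libraries (correlations of same-numbered libraries of -0.26 to 0.13). With the replicate number as a block, LYN's difference between series was 0.24 and not called (edgeR adjusted p = 0.0532), and no other call of the 9 genes changed. Over all genes, calls over 12 libraries were 3566 higher and 3376 lower with the block and 2310 and 1932 with sums per series. For the difference between series they were 389 and 933 with the block and 109 and 97 without control replicates 5 and 6.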

Other observations

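The genes whose pattern over the 12 libraries was most like that of CD79A, by root mean square difference of log2 CPM centred on each gene's mean, were GPSM3 (0.0555), TRAF1 (0.0569) and ABCB4 (0.0610). GPSM3 had a mean of 46.0 CPM in controls and of 80.6 CPM in the other group, TRAF1 had 13.7 and 23.7 CPM, and ABCB4 had 6.89 and 11.7 CPM. As these 3 were picked for a pattern like that of CD79A, their higher level with IRF4 shRNA follows from the choice. Those most like CD79B were BAP1 (0.0349), CLECL1 (0.0388) and P3H1 (0.0414), none of them called by edgeR (adjusted p = 0.465, 0.615 and 0.135). They were picked for a pattern like that of CD79B, itself not called, so the lack of calls follows from the choice. No gene was on both lists of 3, which follows from the unlike patterns of CD79A and CD79B.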
